A study of Drosophila melanogaster and Drosophila simulans and Drosophila yakuba with 27 samples.

Results

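The genes described here are 10 cyclins and mitotic regulators: CycA, CycB, CycB3, stg, polo, fzy, BubR1, CycD, CycE and dap. They were chosen by name, and all 10 were found among the 15439 genes of the deposited expression table. RNA was sequenced from eye-antennal discs, wing discs and brains of wandering third-instar Drosophila larvae raised at 25 °C. Each tissue has 9 libraries, 1 from each of 9 lines of 8 species, for 27 libraries in all. The lines are 2 D. melanogaster strains, RAL-208 (genotype DGRP-208) and Canton S, and 1 line each of D. yakuba, D. simulans, D. virilis, D. mojavensis, D. willistoni, D. ananassae and D. pseudoobscura. By their labels the D. melanogaster strains and the D. virilis, D. mojavensis, D. willistoni, D. yakuba and D. pseudoobscura lines are wild type, the D. simulans line carries the allele w[501], and the D. ananassae line the inversion In(3R)A. No library is labelled as treated. No tissue of a line has a repeat library, so the 9 lines serve as the replicates of a tissue. The p-values of the tissue and lineage comparisons measure the spread between lines that share ancestry.

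Progress through the cell cycle is driven by cyclins, which bind and activate cyclin-dependent kinases. CycD and CycE act in G1 and at entry into S phase, where the protein Dacapo, encoded by dap, inhibits the CycE kinase. CycA, CycB and CycB3 drive mitosis once the phosphatase String, encoded by stg, has removed the inhibitory phosphates from Cdk1, and mitosis ends when the anaphase-promoting complex, activated by Fizzy, marks cyclins for destruction. In the third-instar eye disc, cells arrest in G1 at the morphogenetic furrow, and some of them divide again behind it in the second mitotic wave. Cells of the wing disc proliferate over most of the epithelium, and in the larval brain division is carried by neuroblasts and the progenitors they produce.

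Read totals ran from 3642547 to 12811084 per library in eye-antennal discs, from 4114414 to 14308891 in wing discs and from 4943047 to 20473119 in brains. Every member with a table value was well covered, with 214 to 7297 reads per library. At the fewest reads of each gene, counting error alone came to 3.83% for polo and up to 6.84% for fzy, and it covers no other source of error. The labelled tissues carried their own markers, and also markers of other tissues. The 9 eye disc markers (such as ato, gl and so) summed to 475 to 844 in eye-antennal libraries, 28.2 to 84.2 in wing disc libraries and 160.1 to 281 in brain libraries. The 6 wing disc markers (such as vg and nub) summed to 311 to 557 in wing discs 7.88 to 62.8 in eye-antennal discs and 70.2 to 114 in brains. The 7 neuronal markers with values summed to 318 to 706 in brains, 58.3 to 201 in eye-antennal discs and 15.6 to 53.9 in wing discs. The 3 ring gland markers with values summed to 61.8 to 429 in eye-antennal libraries, 4.53 to 76.1 in wing disc libraries and 59.3 to 333 in brain libraries. The 5 muscle markers summed to 93.3 to 910 in eye-antennal libraries (median 144, highest in D. ananassae), 16.1 to 271 in wing disc libraries (median 47.1) and 17.7 to 777 in brain libraries (median 67.0, highest in D. simulans). These sums differ between the tissues compared, and their part in the results was not tested. No marker was at 0 in all lines of a tissue. In such bulk samples, fewer cells in division and less RNA of a gene per cell cannot be told apart.

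Values are the deposited signal, which in D. melanogaster behaves as reads per length of gene. For 3762 of 5548 genes (67.8%), the factor between reads and signal followed the exonic length within 0.03 on the log2 scale, and for the members the ratio of that factor to exonic length lay between 0.882 (CycB3) and 1.05 (BubR1) of the median gene's. Levels of different members can thus be set side by side per length in D. melanogaster. In the eye-antennal disc of RAL-208, polo had the highest level per length (213), followed by stg (199), CycA (186), CycB (149) and dap (143). The other members had 75.8 for fzy, 72.3 for CycB3, 54.4 for CycD, 52.4 for BubR1 and 40.6 for CycE. In the wing disc of RAL-208 the order began with polo at 279, CycB at 188 and CycA at 187, with stg next at 113. In its brain CycA led with 168, ahead of polo with 154, and CycD was last with 32.8. The G1 cyclins CycD and CycE were thus among the 4 lowest members in each tissue of this strain.

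**Figure D1:**
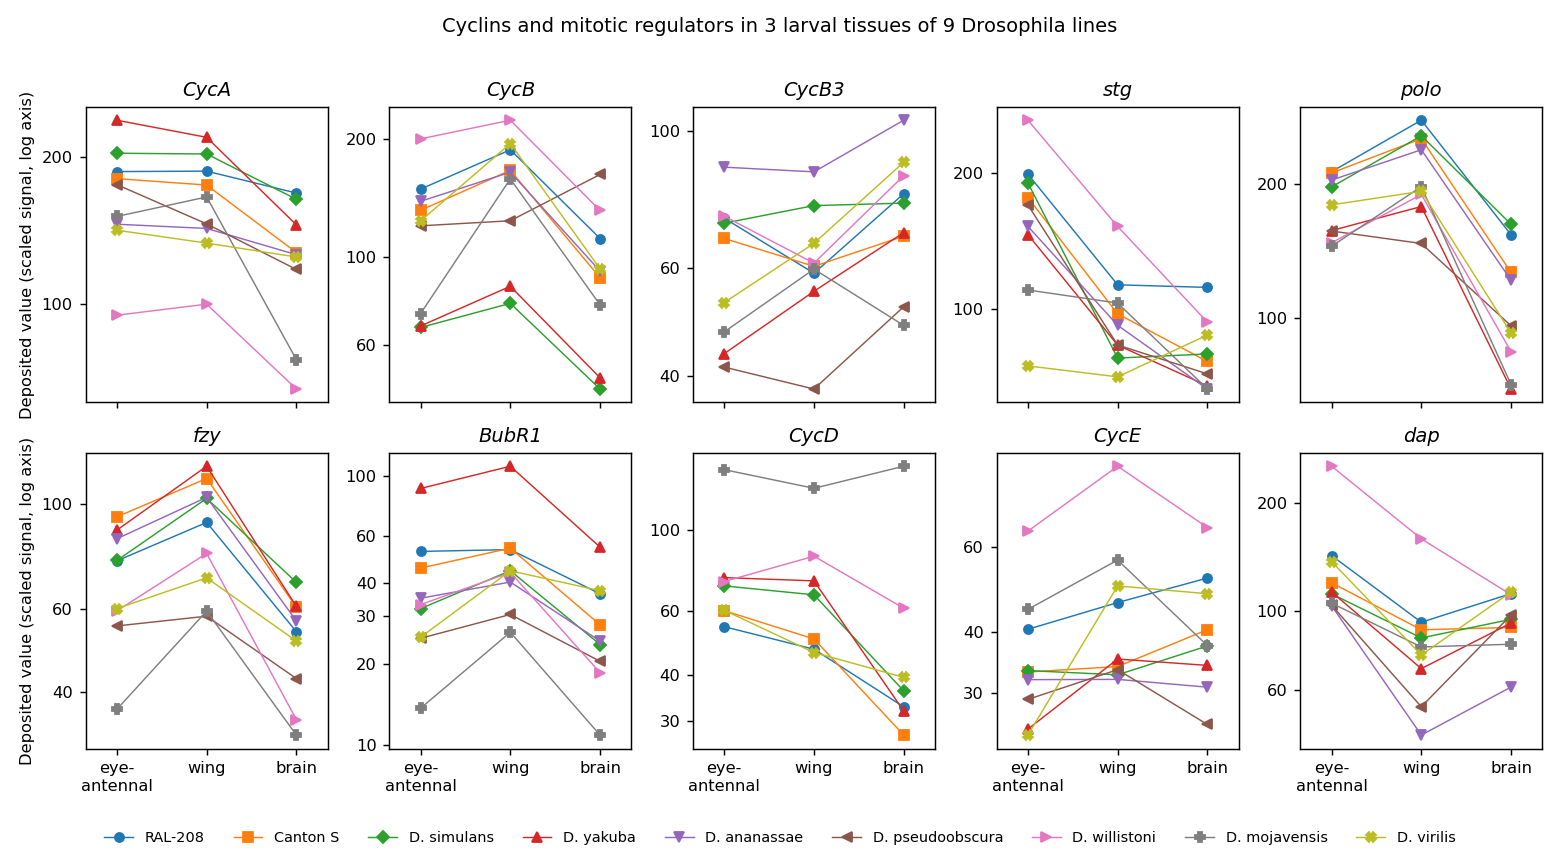
Deposited value (scaled signal, log axis) of each of the 10 genes in the eye-antennal disc, the wing disc and the brain, with 1 line and symbol per Drosophila line. In 8 of 9 lines stg is highest in the eye-antennal disc, and in 9 of 9 lines dap is highest there, while fzy and BubR1 peak in the wing disc in 9 of 9 lines and polo in 8 of 9.

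The 3 tissues differed in most of these genes, but in 2 different ways. The G2 phosphatase gene stg and the inhibitor gene dap were highest in the eye-antennal disc, whereas CycB, polo, fzy and BubR1, which act in mitosis itself, were highest in the wing disc. The brain had the lowest levels of CycA, polo and fzy in 9 of 9 lines, and the highest level of CycB3 in 8 of 9. CycE did not pass the test in any of the 3 comparisons. Tests were made with limma on log2(value + 1) with line as a block, over 7677 genes in 27 libraries, at an adjusted p under 0.05. CycD has no value in D. ananassae and D. pseudoobscura, so it was tested in a fit on the other 7 lines with 7868 genes.

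Of the 9 members tested in all lines, 2 were higher and 4 lower in the eye-antennal disc than in the wing disc. Among all 7677 genes tested, 21.3% passed in either direction, 1154 higher and 479 lower. With library medians set equal, the all-gene calls were 1069 higher and 778 lower. Against the brain, 7 of 9 members were higher and 1 was lower in the eye-antennal disc, while 52.6% of all genes passed in either direction, 1978 higher and 2061 lower. In the wing disc against the brain, 5 were higher and 2 lower, and 60.2% of all genes passed in either direction, 2164 higher and 2458 lower. The median log2 difference of the 9 members was -0.25 for eye-antennal against wing disc, 0.43 for eye-antennal disc against brain and 0.42 for wing disc against brain, while the medians of all genes were 0.04, 0.00 and -0.02. A difference of 1 sign in 9 of 9 lines was found for 5 of 9 members between the eye-antennal disc and the wing disc (13.0% of all genes), 5 between the eye-antennal disc and the brain (32.8%) and 4 between the wing disc and the brain (39.6%). In no member and comparison did the ranges of the 2 tissues separate completely over the lines. How many of all genes separate in this way was not counted. Levels also differ between lines.

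**Figure D2:**
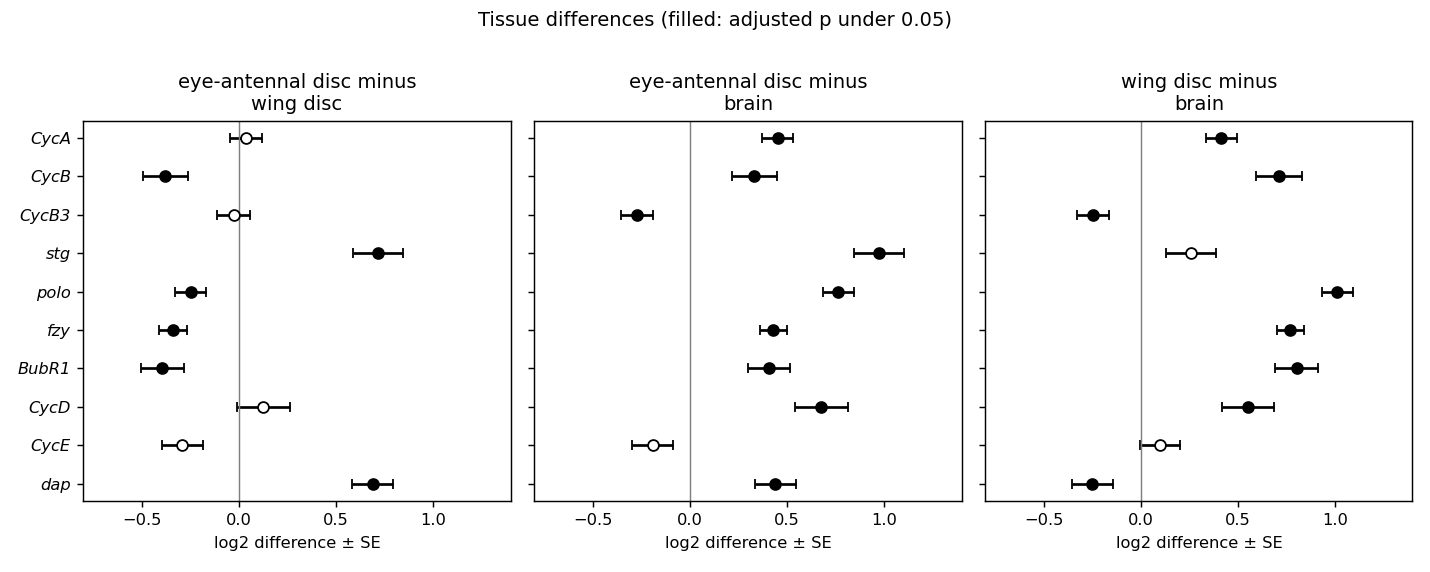
Log2 difference with its standard error for each gene in 3 tissue comparisons; filled points passed an adjusted p of 0.05. In the eye-antennal against the wing disc, stg and dap lie right of 0 and CycB, polo, fzy and BubR1 left of it, whereas in the wing disc against the brain CycB3 and dap are the genes that were lower.

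The gene stg (3R:29251826-29255800, minus strand, BDGP6) encodes the Cdc25-type phosphatase whose transcription times entry into mitosis in many fly tissues. Its value in the eye-antennal disc was lowest in D. virilis at 74.7, had a median of 170.1 and was highest in D. willistoni at 262. In the wing disc the lowest, median and highest values were 70.6, 91.9 and 152, and in the brain they were 66.4, 76.4 and 112. The eye-antennal value exceeded the wing disc value in 9 of 9 lines and the brain value in 8 of 9, D. virilis being the exception. The mean was 165 ± 53.7 in the eye-antennal disc, 96.9 ± 24.6 in the wing disc and 80.0 ± 15.2 in the brain (SD, n = 9 each). The log2 difference was 0.72 (SE 0.13, adjusted p = 0.000355) against the wing disc and 0.98 (SE 0.13, adjusted p = 2.32e-06) against the brain. Between the wing disc and the brain it was 0.26 (SE 0.13, adjusted p = 0.0918), which did not pass the test. Without D. virilis this last difference was 0.33 with an adjusted p of 0.00569, and it also passed with medians set equal (0.34). It passed too in 2 fits, given further on, that leave out lines in which earlier results placed transcripts of another tissue (0.42 and 0.38).

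The gene dap (2R:9712321-9716256, plus strand, BDGP6) encodes Dacapo, the fly inhibitor of the p21 and p27 type that holds CycE kinase in check as cells leave the cycle. Its lowest, median and highest values were 103, 113 and 254 in the eye-antennal disc, 44.8, 79.1 and 159 in the wing disc and 61.1, 94.6 and 113 in the brain. The eye-antennal disc had the highest dap value of the 3 tissues in 9 of 9 lines. The wing disc had the lowest in 8 of 9 lines, the exception being D. willistoni, where dap had 254 in the eye-antennal disc, 159 in the wing disc and 111 in the brain. The difference was 0.69 (SE 0.11, adjusted p = 5.57e-05) against the wing disc and 0.44 (SE 0.11, adjusted p = 0.00145) against the brain. In the wing disc dap was lower than in the brain by a log2 difference of -0.25 (SE 0.11, adjusted p = 0.0475). This last call was lost under 13 of 20 alternatives, among them equal medians, which gave -0.16 with an adjusted p of 0.191, and each of 6 lines left out in turn.

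CycA (3L:11826719-11833578, minus strand, BDGP6) encodes the cyclin that acts in S phase and at entry into mitosis. Over the 9 lines the lowest, median and highest CycA values were 94.8, 175 and 237 in the eye-antennal disc, 99.8, 165 and 219 in the wing disc and 66.9, 126 and 168 in the brain. Both discs exceeded the brain in 9 of 9 lines, although the ranges overlapped. The differences from the brain were 0.45 (SE 0.08, adjusted p = 7.42e-05) in the eye-antennal disc and 0.42 (SE 0.08, adjusted p = 0.000143) in the wing disc. Between the 2 discs the difference was 0.04 (SE 0.08, adjusted p = 0.793), the eye-antennal value being the higher in 6 of 9 lines.

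CycB (2R:22803521-22806948, minus strand, BDGP6) encodes a cyclin of mitosis, a partner of Cdk1. Its lowest, median and highest values were 66.4, 124 and 200.1 in the eye-antennal disc, 76.5, 165 and 223 in the wing disc and 46.3, 92.4 and 162 in the brain. The wing disc value was the highest of the tissues in 8 of 9 lines and the brain value the lowest in 7 of 9. D. pseudoobscura went the other way, with 120.3 in the eye-antennal disc, 124 in the wing disc and 162 in the brain. In D. mojavensis CycB had 72.0 in the eye-antennal disc, 158 in the wing disc and 75.8 in the brain. CycB was lower in the eye-antennal than in the wing disc by -0.38 (SE 0.12, adjusted p = 0.0240), in 9 of 9 lines. It was higher than in the brain by 0.33 in the eye-antennal disc (SE 0.12, adjusted p = 0.0216) and by 0.71 in the wing disc (SE 0.12, adjusted p = 2.34e-05). The call against the wing disc was lost without RAL-208 (adjusted p = 0.0507), D. mojavensis (0.0888) or D. virilis (0.0525). The call of the eye-antennal disc against the brain was lost without any 1 of D. willistoni, D. ananassae, D. yakuba, D. simulans or Canton S, at adjusted p-values of 0.0516 to 0.0609.

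CycB3 (3R:24867934-24870816, minus strand, BDGP6) encodes another mitotic cyclin, which acts late in mitosis. It was the member with the opposite order to the other mitotic cyclins. For CycB3 the lowest, median and highest values were 41.4, 67.0 and 87.5 in the eye-antennal disc, 38.1, 60.4 and 86.0 in the wing disc and 48.4, 76.5 and 104 in the brain. The brain value was the highest in 8 of 9 lines, with D. mojavensis as the exception. CycB3 was lower than in the brain by -0.27 in the eye-antennal disc (SE 0.08, adjusted p = 0.00918) and by -0.25 in the wing disc (SE 0.08, adjusted p = 0.0149). The wing disc call was lost under 4 of 20 alternatives, among them medians set equal, where the difference was -0.16 (adjusted p = 0.0796). The eye-antennal call was lost under 2, the first without the block. The second left out 4 lines in which earlier results placed eye-typical transcripts in the wing disc, and its difference was -0.14 (adjusted p = 0.311). Between the 2 discs the difference was -0.03 (SE 0.08, adjusted p = 0.864).

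The gene polo (3L:20309654-20313466, plus strand, BDGP6) encodes the kinase that gave the Polo-like kinases their name, with roles at centrosomes, kinetochores and the midbody. Its lowest, median and highest values were 145, 179.7 and 213 in the eye-antennal disc, 147, 197 and 279 in the wing disc and 69.2, 96.0 and 163 in the brain. In 9 of 9 lines both discs exceeded the brain, and in 8 of 9 the wing disc had the highest value. The wing disc stood above the brain by 1.01 (SE 0.08, adjusted p = 9.66e-10), a fold of 2.02. The eye-antennal disc stood above the brain by 0.76 (SE 0.08, adjusted p = 1.10e-07), a fold of 1.70. The eye-antennal disc was lower than the wing disc by -0.25 (SE 0.08, adjusted p = 0.0322). That call was lost when any 1 of RAL-208, Canton S, D. ananassae, D. willistoni or D. mojavensis was left out, at adjusted p-values of 0.0618 to 0.0799.

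The gene fzy (2L:16310956-16313097, plus strand, BDGP6) encodes Fizzy, the Cdc20 protein that activates the anaphase-promoting complex. Lowest, median and highest values of fzy were 36.8, 75.8 and 93.9 in the eye-antennal disc, 57.9, 91.4 and 120.2 in the wing disc and 32.4, 53.6 and 68.2 in the brain. All 9 lines had 1 order for this gene, with the wing disc above the eye-antennal disc and the eye-antennal disc above the brain. The eye-antennal disc differed from the wing disc by -0.34 (SE 0.07, adjusted p = 0.00149) and from the brain by 0.43 (SE 0.07, adjusted p = 3.40e-05). The wing disc differed from the brain by 0.77 (SE 0.07, adjusted p = 9.08e-09).

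BubR1 (2R:5969099-5974385, minus strand, BDGP6) encodes a spindle checkpoint protein that restrains Fizzy until all chromosomes are attached. Its lowest, median and highest values were 13.7, 33.2 and 89.8 in the eye-antennal disc, 26.2, 44.4 and 109 in the wing disc and 10.9, 24.3 and 54.3 in the brain. D. mojavensis had the lowest value and D. yakuba the highest in each of the 3 tissues. The wing disc had the highest value in 9 of 9 lines. The eye-antennal disc was lower than the wing disc by -0.39 (SE 0.11, adjusted p = 0.0130) and higher than the brain by 0.41 (SE 0.11, adjusted p = 0.00371). The wing disc was higher than the brain by 0.80 (SE 0.11, adjusted p = 2.40e-06).

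CycD (X:15906822-15909676, minus strand, BDGP6) encodes the partner of Cdk4, which in flies promotes growth as well as division. In the 7 lines with a value, the lowest, median and highest were 54.4, 70.3 and 146 in the eye-antennal disc, 46.2, 66.5 and 130.1 in the wing disc and 27.5, 36.3 and 149.5 in the brain. The brain value was the lowest in 6 of 7 lines. In D. mojavensis CycD instead had 146 in the eye-antennal disc, 130.1 in the wing disc and 149.5 in the brain. CycD was higher than in the brain by 0.68 in the eye-antennal disc (SE 0.14, adjusted p = 0.000658) and by 0.55 in the wing disc (SE 0.14, adjusted p = 0.00255). In that 7-line fit 22.7% and 25.9% of all genes were higher in these comparisons. Between the discs the difference was 0.13 (SE 0.14, adjusted p = 0.597), and 12.5% of all genes were higher there.

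CycE (2L:15727581-15748150, minus strand, BDGP6) encodes the partner of Cdk2 that starts S phase. For CycE the lowest, median and highest values were 24.6, 33.1 and 64.8 in the eye-antennal disc, 32.0, 35.3 and 88.2 in the wing disc and 25.8, 37.6 and 65.9 in the brain. No tissue was highest in all lines: the wing disc was in 6 of 9 and the brain in 3. The eye-antennal disc differed from the wing disc by -0.29 (SE 0.10, adjusted p = 0.0549), with a lower value in 8 of 9 lines. Of the 20 alternatives 4 took this difference past the threshold, among them edgeR on read counts (-0.34, adjusted p = 0.0180) and medians set equal (-0.34, adjusted p = 0.0126). Against the brain the differences were -0.19 in the eye-antennal disc (SE 0.10, adjusted p = 0.136) and 0.10 in the wing disc (SE 0.10, adjusted p = 0.435). The eye-antennal difference from the brain passed with edgeR (-0.24, adjusted p = 0.0482) and DESeq2 (-0.25, adjusted p = 0.0367) on read counts.

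For stg, CycE and BubR1, D. virilis had the lowest difference of the eye-antennal disc from the brain. Its wing disc difference from the brain was also the lowest of the lines for stg (-0.30) and BubR1 (0.24), but not for CycE (0.05). A difference holds the libraries of both tissues, so these values do not place the deviation in a single library. In the eye-antennal disc of D. virilis stg had 74.7, against 70.6 in its wing disc and 87.5 in its brain. The other 8 lines had more stg in the eye-antennal disc than in either other tissue. D. mojavensis came closest to D. virilis, with 110.1 in the eye-antennal disc, 103 in the wing disc and 66.4 in the brain. CycE in D. virilis had 24.6 in the eye-antennal disc against 49.9 in the wing disc and 48.1 in the brain, a log2 difference of -0.99 and -0.94. BubR1 had 25.1 in the eye-antennal disc, 44.4 in the wing disc and 37.4 in the brain of this species, and no other line had less BubR1 in the eye-antennal disc than in the brain. Against the wing disc, BubR1 was lower still in D. mojavensis (-0.89, with -0.80 in D. virilis). The inhibitor dap did not share this, with 137 in the eye-antennal disc against 75.1 in the wing disc and 113 in the brain of D. virilis. Nor did CycA, CycB, CycD, fzy and polo. Their eye-antennal differences from the brain in D. virilis (0.18, 0.40, 0.60, 0.22 and 0.95) lay within the range of the other lines. CycB3 had its lowest such difference in D. virilis (-0.75). The eye disc markers of the D. virilis eye-antennal library summed to 475, the lowest of the 9 lines (median 595), and its neuroblast markers to 76.8, also the lowest (median 195). The part of these in the result was not tested. Without D. virilis the eye-antennal excess of stg was 0.80 over the wing disc and 1.13 over the brain, both past the threshold.

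**Figure D3:**
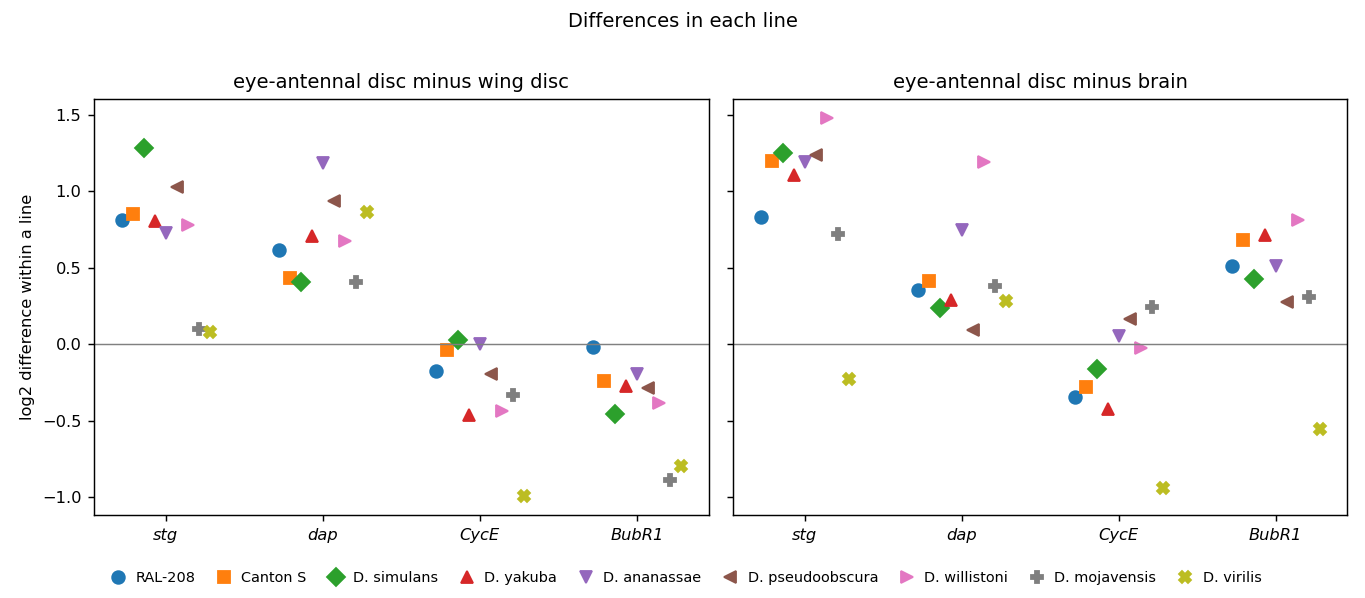
Log2 difference of stg, dap, CycE and BubR1 within each of the 9 lines, for the eye-antennal disc against the wing disc (left) and against the brain (right), with 1 symbol per line. D. virilis lies lowest for stg, CycE and BubR1 against the brain (-0.23, -0.94 and -0.56) but inside the range of the other lines for dap.

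Earlier results of these data placed brain-typical transcripts in a disc library of 5 lines (RAL-208, Canton S, D. simulans, D. mojavensis and D. virilis) and eye-typical transcripts in the wing disc library of 4 (D. simulans, D. yakuba, D. ananassae and D. virilis). The neuronal marker sum of the eye-antennal library was 9.61% to 36.4% of the brain's in those 5 lines and 15.9% to 22.7% in the other 4. For the wing disc library it was 2.56% to 8.03% and 3.73% to 7.96%. The eye marker sum of the wing disc library was 6.26% to 12.8% of the eye-antennal disc's in those 4 lines and 3.62% to 7.15% in the other 5. The values of 9.61% and 6.26% are those of D. virilis. For the neuronal sum of the eye-antennal library and the eye marker sum, every line left out except D. virilis lay above the range of the lines kept. These sums thus separated the lines left out from those kept apart from D. virilis. The neuronal sum of the wing disc library did not separate them, with the lowest value (2.56%) in RAL-208. D. virilis had the highest glial marker sum of the wing disc libraries (16.1) and the lowest of the eye-antennal libraries (20.6). The names brain-typical and eye-typical lines stand below only for the groups of the earlier results. With the 5 lines left out, 2 members were higher and 0 lower in the eye-antennal than in the wing disc, where 9.90% of all genes passed in either direction, and the differences of CycB, polo, fzy and BubR1 were -0.19, -0.17, -0.30 and -0.28. The same fit called 6 higher and 1 lower against the brain (40.6% of all genes) and, for the wing disc against the brain, 5 higher and 1 lower (49.3%), where stg passed (0.42) and CycB did not (0.49, adjusted p = 0.0570). With the 4 lines left out, 2 were higher and 1 lower between the discs (16.1%), 6 higher and 0 lower in the eye-antennal disc against the brain (40.1%), and 6 higher and 0 lower in the wing disc against the brain (52.3%). In the fit without those 4 lines the differences between the discs were -0.40 for CycB, -0.27 for polo, -0.34 for fzy, which passed, and -0.37 for BubR1, beside -0.38, -0.25, -0.34 and -0.39 in all lines. In both fits stg and dap were higher in the eye-antennal disc than in the wing disc.

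Levels also differed between species, in which the length and annotation of the gene are included. On the log2 scale the SD between lines had a median over the 9 members of 0.42 in the eye-antennal disc, 0.39 in the wing disc and 0.40 in the brain, beside 0.54, 0.48 and 0.46 over all genes. The most even members were polo in the eye-antennal disc and in the wing disc and stg in the brain, and BubR1 was the least even of these 9 in each tissue. CycD, with 7 lines, was less even than BubR1 in the brain (SD 0.85 against 0.67 on the log2 scale of the values). The highest BubR1 value was 6.58 times the lowest in the eye-antennal disc. D. willistoni had the highest stg, dap, CycE and CycB in both discs and the lowest CycA in each tissue. The factor between reads and value enters each level, while differences between tissues within a line do not hold it. For dap, relative to RAL-208, it was 0.384 in D. willistoni, 0.43 to 0.467 in 5 other species and 1.45 in D. pseudoobscura. Before that factor, the eye-antennal reads of dap, scaled to library totals (CPM), were 165 in D. willistoni and 74.9 to 107 in the 5 species. They were higher in Canton S (187), RAL-208 (220) and D. pseudoobscura (269), so D. willistoni did not lead by reads. Eye-antennal stg likewise had 402 CPM in D. willistoni and 451 in D. pseudoobscura, and CycE 116 in D. willistoni and 128 in RAL-208. For CycD the factor was 0.354 in D. mojavensis and 0.688 to 1 in the other 6 lines. Eye-antennal CycD, the highest of the lines as a value in D. mojavensis, had 89.5 CPM there and 73.0 to 128 in the other 6 lines.

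The tissue differences of the melanogaster subgroup (D. yakuba, D. simulans and the strains RAL-208 and Canton S) were set against those of the other 5 lines by an interaction term in limma. No member passed an adjusted p of 0.05, among 0% of all genes for the eye-antennal against the wing disc, 0.0651% for the eye-antennal disc against the brain and 0.534% for the wing disc against the brain. At an unadjusted p under 0.05 there were 0, 1 and 2 of the 10 members, and the share of all genes under it was not counted. CycD accounted for 1 in each of the brain comparisons, its excess over the brain being larger in the subgroup by 0.72 in the eye-antennal disc (SE 0.19, adjusted p = 0.165) and by 0.68 in the wing disc (SE 0.19, adjusted p = 0.115). These rest on 4 lines of the subgroup and 3 others, 1 of them D. mojavensis. CycE was the other, with -0.43 for the wing disc against the brain (SE 0.20, adjusted p = 0.366).

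Between the D. melanogaster strains, RAL-208 and Canton S, none of the 10 members passed the edgeR quasi-likelihood test on read counts with tissue as a block, where 0.295% of 9476 genes did. DESeq2 also called 0. The edgeR and DESeq2 tests measure a strain difference against its spread over the 3 tissues, with 2 residual degrees of freedom. No tissue of a strain has a repeat library. At an unadjusted p under 0.05 each tool gave 4 members. The share of all genes under that unadjusted p was not counted, so the 4 are not read as a trait of these genes. CycE was higher in RAL-208 by 0.33 (SE 0.08, adjusted p = 0.206), with values of 40.6, 46.1 and 51.8 in the eye-antennal disc, wing disc and brain of RAL-208 against 33.1, 34.0 and 40.5 in Canton S. The value of fzy was lower in RAL-208 in all 3 tissues, by -0.30 (SE 0.07, adjusted p = 0.206), with 75.8, 91.4 and 53.6 in RAL-208 against 93.9, 113 and 60.5 in Canton S. The other 2 were stg at 0.28 (SE 0.09, adjusted p = 0.266) and CycB at 0.19 (SE 0.07, adjusted p = 0.280).

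CycA, CycB, polo, fzy and BubR1 varied together across tissues, with r of 0.553 or more in each pair, whereas CycB3 had a negative r with each of them. With values centred within each line, Pearson's r over 27 libraries reached 0.927 between fzy and BubR1, 0.923 between polo and fzy, 0.871 between CycA and polo and 0.86 between CycB and fzy. The gene stg was closest to dap (0.681) and CycA (0.653), and its r with CycB was 0.234. CycB3 had negative r with 7 of the other 8 members, reaching -0.617 with polo, and 0.384 with CycE. CycE and dap had an r of -0.435. The libraries share lines and tissues, so these values describe the pattern over 3 tissues in 9 lines and carry no test.

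**Figure D4:**
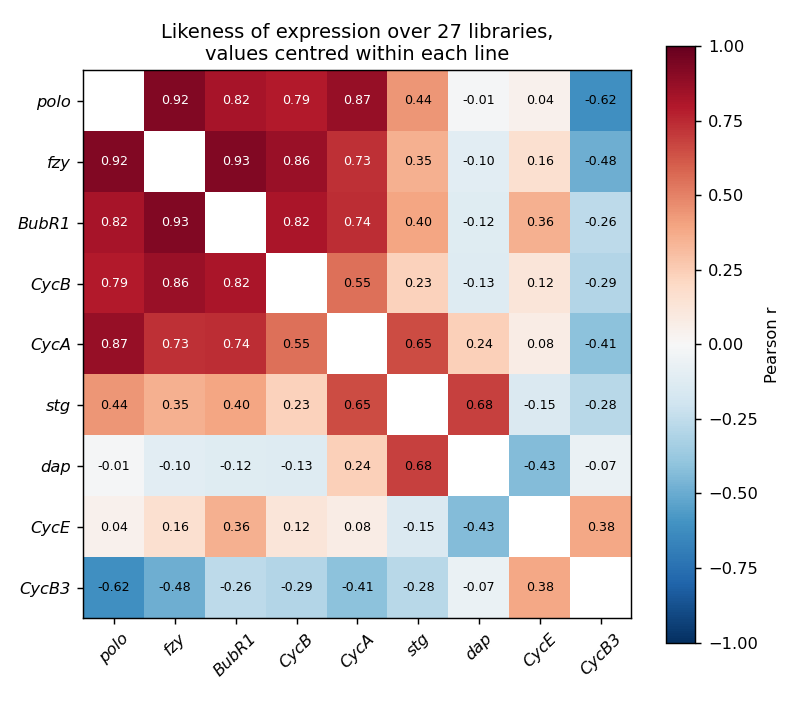
Pearson's r between pairs of members over 27 libraries, from log2(value + 1) centred within each line, with red for positive and blue for negative r. A block of high r joins polo, fzy, BubR1, CycB and CycA, stg pairs best with dap, and the CycB3 row is negative except with CycE.

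Among 7668 other tested genes, those most like stg by this measure were aop (r = 0.937), pk (0.91) and bnl (0.899). Those most like dap were pnt (0.882), H15 (0.882) and disco-r (0.857). The closest to CycE were Sfmbt (0.884), gro (0.829) and fbl6 (0.821). The closest to CycB were CG11417 (0.928), cmet (0.915) and dgt6 (0.902). The closest to CycB3 were C3G (0.872), Rad17 (0.855) and CG10948 (0.853).

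Of 96 other cell cycle genes in 5 lists, 87 were tested. In the eye-antennal against the wing disc 3 were higher and 21 lower, in the eye-antennal disc against the brain 25 were higher and 11 lower, and in the wing disc against the brain 46 were higher and 10 lower. In either direction 27.6%, 41.4% and 64.4% of the 87 were called, beside 21.3%, 52.6% and 60.2% of all genes, so the share called was not far from that of all genes. The median log2 differences of the 87 genes were -0.13, 0.08 and 0.21, where those of all genes were 0.04, 0.00 and -0.02. The cyclins and cyclin-dependent kinases outside the members had 1 higher and 2 lower of 14 between the discs, 4 and 3 for the eye-antennal disc against the brain, and 6 and 4 for the wing disc against the brain, or 21.4%, 50% and 71.4% called. Cdk4, the kinase partner of CycD, was lower in the eye-antennal than in the wing disc by -0.33 (SE 0.12, adjusted p = 0.0492 in limma). Cdk4 was higher than in the brain by 1.29 in the eye-antennal disc and 1.62 in the wing disc (SE 0.12 each). CycY, a membrane-associated cyclin, was lower than in the brain by -0.65 in both discs (SE 0.05). Cdk9, a kinase of transcription elongation, was higher in the eye-antennal than in the wing disc by 0.17 (SE 0.06, adjusted p = 0.0460 in limma). The calls of Cdk4 and Cdk9 between the discs lie near the threshold. Calls of single listed genes were not followed under the alternatives.

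The G1/S regulators gave 1 higher and 4 lower of 14 between the discs, 2 and 3 for the eye-antennal disc against the brain and 5 and 1 for the wing disc against the brain, or 35.7%, 35.7% and 42.9% called, the last 2 below the shares of all genes. The gene rap, now named fzr, encodes the other activator of the anaphase-promoting complex, which works in G1. It had the opposite order to fzy: it was higher in the eye-antennal than in the wing disc by 0.44 (SE 0.10) and lower than in the brain by -1.14 in the eye-antennal disc and -1.58 in the wing disc (SE 0.10 each). The replication licensing gene dup was lower in the eye-antennal than in the wing disc by -0.42 (SE 0.09). The gene trbl, whose product promotes breakdown of String, was higher than in the brain by 0.83 in the eye-antennal disc and 1.00 in the wing disc (SE 0.08 each).

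Genes of entry into and exit from mitosis gave 0 higher and 6 lower of 24 between the discs, 6 and 1 for the eye-antennal disc against the brain and 13 and 2 for the wing disc against the brain. In either direction 25%, 29.2% and 62.5% were called, beside 21.3%, 52.6% and 60.2% of all genes. Incenp, a subunit of the chromosomal passenger complex, was lower in the eye-antennal than in the wing disc by -0.34 (SE 0.09). Sse, the fly separase, was higher than in the brain by 0.51 in the eye-antennal disc and 0.71 in the wing disc (SE 0.09 each). Cdc27, a subunit of the anaphase-promoting complex, was lower than in the brain by -0.37 and -0.43 in the eye-antennal and the wing disc (SE 0.06 each).

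The spindle checkpoint and kinetochore list gave 0 higher and 1 lower of 17 between the discs, 7 and 1 for the eye-antennal disc against the brain and 10 and 0 for the wing disc against the brain, or 5.88%, 47.1% and 58.8% called, each below the share of all genes. The gene cmet, a kinetochore kinesin, was the lower one between the discs at -0.38 (SE 0.11) and was higher in the wing disc than in the brain by 0.83 (SE 0.11). The gene zwilch, of the complex that brings dynein to kinetochores, was higher in the eye-antennal disc than in the brain by 0.56 (SE 0.09), and the checkpoint gene Mad1 was lower by -0.19 (SE 0.06). The spindle and cytokinesis list gave 1 higher and 8 lower of 18 between the discs, 6 and 3 for the eye-antennal disc against the brain and 12 and 3 for the wing disc against the brain. Of this list 50%, 50% and 83.3% were called, beside 21.3%, 52.6% and 60.2% of all genes. Between the discs the centrosome gene spd-2 was lower at -0.38 (SE 0.10) and the septin gene Sep2 higher at 0.19 (SE 0.05). Against the brain, the centralspindlin gene tum was higher by 0.45 (SE 0.09) and the centrosome gene cnn lower by -0.54 (SE 0.09) in the eye-antennal disc. In the wing disc the spindle motor gene Klp61F was higher than in the brain by 0.76 (SE 0.10) and Sep2 lower by -0.62 (SE 0.05).

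**Figure D5:**
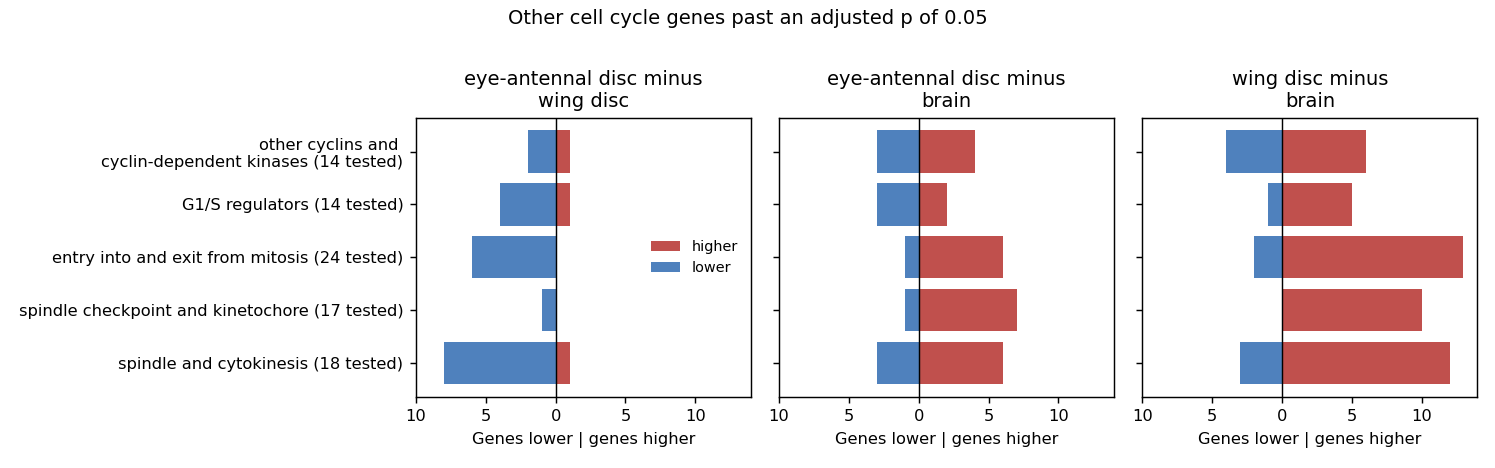
Number of genes of 5 other cell cycle lists that passed an adjusted p of 0.05 in each tissue comparison, with higher genes in red right of 0 and lower genes in blue left of 0. Between the discs the genes past the threshold in the 3 mitotic lists are lower in the eye-antennal disc except for Sep2, and in the wing disc against the brain most of them are higher, with 12 of 18 spindle and cytokinesis genes higher there. Of all 7677 genes, 60.2% were called in that comparison, 2164 higher and 2458 lower.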

How the data were processed

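Per the labels' protocols, RNA came from an RNAqueous micro kit extraction and was sequenced from TruSeq libraries. Reads were aligned with TopHat2 2.0 and counted with HTSeq, per the submitters' processing notes. The genome build was not given in the sources used here. Read counts per gene for each library were deposited by the authors, with 1 table of normalised values, a signal under D. melanogaster gene symbols. That table's D. melanogaster columns without a strain name were taken as RAL-208, because its other D. melanogaster columns name Canton S.

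For the genes that could be paired, the deposited signal equals a read count divided by 1 constant per gene within a line and 1 factor per library. Counts were paired with the table by this proportion (tolerance 3e-07 on the natural log). In each line 88.42% to 95.95% of the genes above 0 in all 3 tissues were paired, which gave reads for all members with a value. Positions come from the BDGP6 annotation in the reference used here.

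Tissues were compared with limma 3.58.1 (R 4.3.3) on log2(value + 1), with line as a block and a variance trend on intensity, for 7677 genes with a value in all libraries and at least 1 in at least 9. Across genes, a line's libraries deviated together from the tissue means (r = 0.625 to 0.863 over 27 pairs), so lines were kept as pairs. Lineages were compared by an interaction in the same fit. Strains were compared with edgeR 4.0.16 on the deposited counts for genes that reached a CPM of 1 in 2 or more libraries, and DESeq2 1.42.0 was an alternative. The SE of a strain difference was derived from edgeR's F statistic. Benjamini-Hochberg adjustment was made over all genes of a fit. The procedures were tested on simulated data with independent errors, which do not cover shared ancestry or RNA of other tissues in a library.

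The members and gene lists were chosen with earlier results of these data known. All 10 members are named, along with, per list and tissue comparison, the called gene with the largest difference in each direction, and the 3 genes most like stg, dap, CycE, CycB and CycB3. Of 96 listed genes, 1 had no match and 8 were not tested because of missing or low values.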

Additional observations from a re-analysis of the deposited data

Results flagged for a closer look

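In groups of 7 or 9 lines, a line was singled out where its distance from the nearest other line was large against the range of the group (Dixon's 95% critical value). Chance singles out about 1 in 20 groups. Of 30 groups of levels 7 were singled out, and of 30 groups of tissue differences 5.

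Among the levels, D. mojavensis was singled out for CycD in the eye-antennal disc (146) and in the brain (149.5, or 150 when rounded), and D. willistoni for CycE in the eye-antennal disc (64.8) and the wing disc (88.2). D. willistoni was also singled out for dap in the eye-antennal disc (254) and the wing disc (159), and D. yakuba for BubR1 in the wing disc (109).

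Among the log2 differences, D. mojavensis was singled out for CycA in the wing disc against the brain (1.10) and D. pseudoobscura for CycB in the same comparison (-0.39). D. virilis was singled out for CycE in the eye-antennal against the wing disc (-0.99). It was also singled out in the eye-antennal disc against the brain for stg (-0.23) and for BubR1 (-0.56).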

How the results depend on the processing

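No result changed sign past a threshold under any alternative run. Of 540 values of single members other than CycD under alternatives of the tissue comparisons, 478 stayed on the same side of the threshold, 52 lost the call and 10 gained it, and none of 378 lineage values (CycD left out) and 70 strain values (all 10 members) changed side. The higher calls of stg and dap in the eye-antennal against the wing disc, of stg and polo in the eye-antennal disc against the brain, and of polo, fzy and BubR1 in the wing disc against the brain held under all 20 alternatives. CycD kept its calls against the brain when each of its 7 lines was left out, at 0.59 to 0.80 in the eye-antennal disc and 0.45 to 0.68 in the wing disc.

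The count of members lower in the eye-antennal than in the wing disc was 4, and it was 0 without the replicate block, 0 without the lines with brain-typical transcripts, 1 without those with eye-typical transcripts and 2 to 5 with 1 line left out. Without the eye-typical lines CycB, polo and BubR1 lost their calls at -0.40, -0.27 and -0.37, close to -0.38, -0.25 and -0.39 in all lines, with 5 lines in the fit. For the eye-antennal disc against the brain, members higher numbered 7 and without the replicate block 2, while members lower numbered 1, against 0 without the replicate block, 0 without the eye-typical lines and 2 in both edgeR and DESeq2 on paired counts. The 2 members lower in the wing disc than in the brain became 1 with a pseudocount of 5, 1 without the filter, 0 with medians set equal, 0 without the replicate block, 1 without the brain-typical lines, 0 without the eye-typical lines, 0 in the 7-line fit (chosen after seeing the data) and 1 to 2 with 1 line left out. Without the block the differences between species enter the error, and the strain comparison without it still called 0 members.

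Over all genes, the eye-antennal against the wing disc gave 1154 higher and 479 lower, but 634 and 75 without the replicate block, 606 and 139 without the brain-typical lines, 960 and 264 without the eye-typical lines, and 1069 and 778 with medians equal. On the 5540 paired genes it gave 590 and 653 with edgeR, 675 and 733 with DESeq2 and 687 and 422 with limma. Without the block the eye-antennal disc against the brain gave 912 and 1210 in place of 1978 and 2061, and the wing disc against the brain 1071 and 1594 in place of 2164 and 2458. On the paired genes the eye-antennal disc against the brain gave 1455 and 1580 with edgeR and 1460 and 1684 with DESeq2. The wing disc against the brain gave 2164 and 2420 with a pseudocount of 5, and 2169 and 2668 without the filter. It gave 2557 and 2140 with medians equal, and 2036 and 2347 in the 7-line fit.

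Each tissue of a line is 1 library, so differences within a line have no repeat. The lines share ancestry, and only 4 lines remain in the smallest fit. Small differences such as those of CycB, polo and dap near the threshold move with single lines, and the cause was not tested.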
